A study of Arabidopsis thaliana with 8 samples.

Results

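Transcript levels of 10 Arabidopsis genes that write or maintain silent chromatin were measured in the epidermis and the mesophyll of embryo cotyledons. The genes were taken by name for the function of their proteins. They were 6 subunits of Polycomb repressive complex 2 (PRC2), namely CLF, SWN, EMF2, VRN2, FIE and MSI1, and 4 genes of DNA methylation, namely MET1, CMT3, DRM2 and DDM1. They are 10 of the 33602 gene models in the count tables, and all 10 were among the 15794 genes that passed the filter on low counts, which asked for at least 1 CPM (read pairs of a gene per 1000000 counted pairs) in 4 or more of the 8 libraries.

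The samples were 4 epidermis and 4 mesophyll libraries, both cut by laser from paraffin sections of seeds of untreated, wild-type Col-0 plants grown in a greenhouse, with the growth stage labelled 6.30 on the Boyes scale. The embryos are called torpedo stage where the study gives its results, and linear stage where it describes the harvest. It describes 4 biological replicates per tissue, harvested at 4 dates, each made of sections pooled from several siliques of a single plant. The labels do not tie a replicate number to a plant or a harvest date, so p-values here reflect only how far these 8 samples scattered. Each library held 27676412 to 36685627 counted read pairs. Because a library averages many cells, fewer cells of a type and less RNA per cell cannot be told apart.

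PRC2 trimethylates histone H3 at a lysine residue and thereby keeps developmental genes silent in the cells where they are not used. CLF and SWN are alternative catalytic subunits, EMF2 and VRN2 are alternative zinc finger subunits of the Su(z) type, and FIE and MSI1 are the WD40 repeat proteins shared by the different complexes. DNA methylation silences transposons and repeats. MET1 copies methylation at CG sites after replication, CMT3 maintains it at CHG sites, DRM2 adds it de novo at sites chosen by small RNAs, and DDM1 is a chromatin remodeller that gives the methyltransferases access to packed DNA. In embryos, PRC2 subunits hold back the wrong developmental programmes, and methylation has to be copied while cells still divide.

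The labelled tissues were described with marker lists. These lists were chosen with earlier results of these data known, and the study had reported PDF2, ATML1, MYB118 and ZOU as higher in epidermis. They are therefore no independent check. The summed level of 10 epidermis markers was 3454 ± 1014 CPM in epidermis and 457 ± 153 CPM in mesophyll (SD, n = 4 each), and 8 of the 10 were called higher in epidermis. The summed level of 13 photosynthesis genes was 23704 ± 3690 CPM in epidermis and 35078 ± 1770 CPM in mesophyll, with 3 called lower in epidermis. LHCB1.3 and RBCS1A made up most of this sum, and GLK1, a regulator of photosynthesis genes, had the opposite direction, with 95.8 CPM in epidermis and 56.4 CPM in mesophyll (log2 fold change 0.78, adjusted p = 0.129 by the quasi-likelihood test, 0.0450 by the likelihood ratio test and 0.0152 by DESeq2). Markers of the endosperm, the tissue that surrounds the embryo in the seed, also differed. Their sum over 11 genes ranged between 208 and 296 CPM in epidermis and between 18.5 and 75.9 CPM in mesophyll, so the tissues did not overlap. SUC5 made up most of this sum, with TMM-scaled means of 145 CPM in epidermis and 44.7 CPM in mesophyll. Of these 11 markers, 7 were tested, all 7 had a positive fold change, SUC5 was called higher, and MYB115 and AGL61 had no pair in any library. The study proposes, from MYB118, that its epidermis samples were probably contaminated by endosperm during the dissection. Of 8 seed coat markers only AT5G67360 was tested, with means of 111 CPM in epidermis and 154 CPM in mesophyll (adjusted p = 0.647, edgeR), and the other 7 averaged at most 3.25 CPM in epidermis (BAN) and 3.11 CPM in mesophyll (MUM2). Vascular markers summed to 26.1 ± 28.9 CPM in epidermis and 50.8 ± 21.9 CPM in mesophyll.

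Both tissues expressed all 10 genes, and no difference between epidermis and mesophyll passed the test. With edgeR's quasi-likelihood F test, replicate number as a block and Benjamini-Hochberg adjustment over all genes tested, 0 of 10 were called at an adjusted p of 0.05 or less, beside 1.08% of all 15794 genes. By direction, 0.981% of all genes were called higher and 0.101% lower in epidermis. None of the 10 had an unadjusted p under 0.05, beside 11.8% of all genes. Other fits also called 0 of 10. The likelihood ratio test called 5.2% of all genes, DESeq2 8.36%, limma-voom 3.15% and the quasi-likelihood test without the block 2.29%. The values of the tissues overlapped for each of the 10 genes, whereas 10% of all genes did not overlap. Log2 fold changes of epidermis over mesophyll lay between −0.12 for MET1 and 0.73 for SWN, with a median of 0.07, and the median over all genes was −0.04. A test that misses its threshold does not show equal levels, so the interval of each difference is given.

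**Figure D1:**
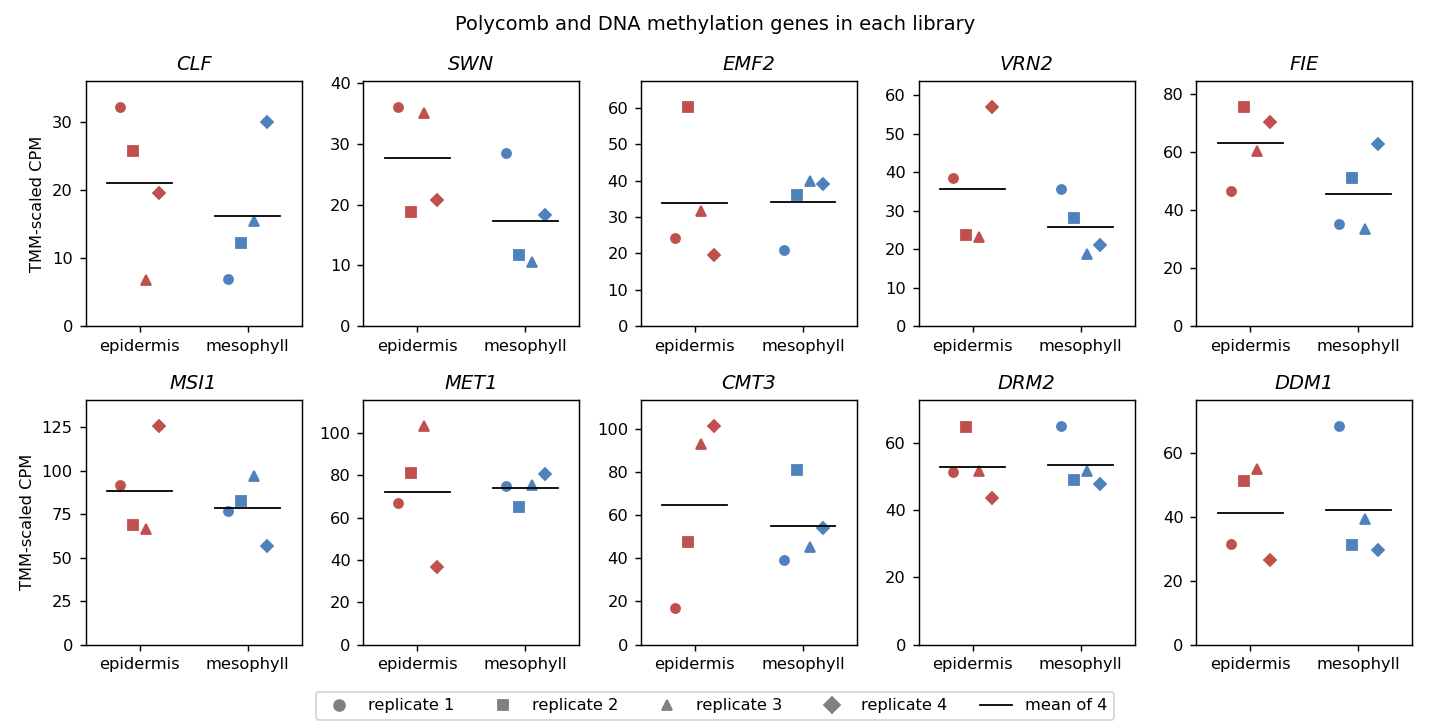
TMM-scaled CPM of each of the 10 genes in the 4 epidermis libraries (red, left) and the 4 mesophyll libraries (blue, right). Symbols mark the replicate number and lines the mean of 4, and in every panel the points of the tissues overlap.

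Levels below are CPM scaled by the trimmed mean of M values (TMM), with replicates 1 to 4 in order, and coordinates are those of the whole gene on TAIR10.1. CLF (AT2G23380, chr2:9955092-9960386, plus strand), the catalytic subunit that acts through most of plant development, had 32.2, 25.8, 6.80 and 19.6 CPM in epidermis, against 6.95, 12.2, 15.5 and 30 CPM in mesophyll. The lowest library of each tissue was more than 4-fold below its highest, with a range of 4.73-fold in epidermis and 4.32-fold in mesophyll. The log2 fold change was 0.36 (SE 0.67, adjusted p = 0.908, edgeR), and its 95% interval, 0.443-fold to 3.69-fold, was the widest of the 10 genes. CLF also had the smallest counts, down to 195 pairs in mesophyll replicate 1 (95% Poisson interval 169 to 224), which is far narrower than the spread between libraries.

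SWN (AT4G02020, chr4:886580-891987, plus strand), the partly redundant partner of CLF, had 36.0, 18.8, 35.0 and 20.7 CPM in epidermis, against 28.5, 11.7, 10.5 and 18.2 CPM in mesophyll. The epidermis value was the higher in 4 of 4 same-numbered pairs, which held for 11.3% of all genes, but mesophyll replicate 1 lay above epidermis replicates 2 and 4. SWN had the largest estimate of the 10, a log2 fold change of 0.73 (SE 0.41, adjusted p = 0.580, edgeR), with an interval of 0.865-fold to 3.16-fold. The balance of the catalytic subunits varied from library to library. Per kilobase of gene model, SWN over CLF was 1.15, 0.751, 5.31 and 1.09 in epidermis and 4.24, 0.990, 0.70 and 0.626 in mesophyll. A single library of each tissue stood high, epidermis replicate 3 and mesophyll replicate 1, and both were those with the least CLF.

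EMF2 (AT5G51230, chr5:20823644-20829644, plus strand), whose complexes repress flowering genes in seedlings, had 24.3, 60.2, 31.8 and 19.5 CPM in epidermis, against 20.9, 36.2, 40.1 and 39.2 CPM in mesophyll. Its means were close, 33.9 ± 18.2 CPM in epidermis and 34.1 ± 8.96 CPM in mesophyll, and the interval ran between 0.531-fold and 1.65-fold (adjusted p = 0.958, edgeR). VRN2 (AT4G16845, chr4:9476069-9479878, plus strand), known for keeping FLC silent after winter cold, had 38.5, 23.6, 23.3 and 56.9 CPM in epidermis, against 35.6, 28.1, 18.7 and 21.0 CPM in mesophyll. The highest VRN2 value was that of epidermis replicate 4, the library with the least EMF2. The log2 fold change of VRN2 was 0.39 (SE 0.36, adjusted p = 0.778, edgeR), with an interval of 0.738-fold to 2.34-fold. EMF2 over VRN2 per kilobase was 0.444, 1.80, 0.961 and 0.241 in epidermis and 0.412, 0.906, 1.51 and 1.31 in mesophyll, so neither subunit was the more abundant throughout a tissue.

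FIE (AT3G20740, chr3:7248809-7252452, minus strand), present in every PRC2, had 46.7, 75.5, 60.4 and 70.3 CPM in epidermis, against 35.2, 51.1, 33.5 and 63.0 CPM in mesophyll. It had the smallest p of the 10, 0.0649 before and 0.475 after adjustment (edgeR), and a log2 fold change of 0.49 (SE 0.23). The epidermis was the higher in 4 of 4 same-numbered pairs, although mesophyll replicate 4 exceeded epidermis replicates 1 and 3, and the interval was 0.974-fold to 2.04-fold. MSI1 (AT5G58230, chr5:23556012-23558245, plus strand), which also serves the chromatin assembly factor CAF-1, had 91.6, 68.9, 66.7 and 126 CPM in epidermis, against 76.7, 82.7, 97.2 and 56.7 CPM in mesophyll. The extremes of MSI1 were both replicate 4 libraries, highest in epidermis and lowest in mesophyll, and its interval was 0.689-fold to 1.77-fold around a log2 fold change of 0.14 (adjusted p = 0.916, edgeR). Counting did not use strand, and FIE, MSI1 and CLF share 70, 132 and 58 exon bases with genes on the opposite strand, so reads from those stretches cannot be assigned to a strand.

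Of the 6 PRC2 genes, 5 had a positive and 1 (EMF2) a negative fold change, with a median of 0.37 on the log2 scale and 0 called. Summed over the 6, the TMM-scaled level was 269, 273, 224 and 313 CPM in epidermis, against 204, 222, 216 and 228 CPM in mesophyll. Epidermis replicate 3 fell inside the mesophyll range on this scale. Without TMM, the sums were 249.6, 276, 242 and 293 CPM in epidermis and 203, 224, 224 and 224 CPM in mesophyll, which did not overlap, so whether they overlapped depended on the scaling. FIE carried 17.5 of the 52.4 CPM between the TMM-scaled means, SWN 10.4, MSI1 9.94, VRN2 9.70 and CLF 4.93, with EMF2 at −0.13. The summed endosperm markers were also higher in all 4 epidermis libraries, as were the summed epidermis markers, and the part of either in these values was not tested.

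MET1 (AT5G49160, chr5:19932114-19938470, plus strand) had 67.1, 81.2, 103 and 36.5 CPM in epidermis, against 74.8, 65.0, 75.6 and 80.8 CPM in mesophyll. The mesophyll libraries lay within a 1.24-fold range and the epidermis libraries within a 2.83-fold range that enclosed them. The log2 fold change was −0.12 (SE 0.30, adjusted p = 0.929, edgeR) with an interval of 0.572-fold to 1.47-fold. CMT3 (AT1G69770, chr1:26248118-26253687, minus strand) had 16.9, 47.5, 93.0 and 101 CPM in epidermis, against 38.9, 81, 45.2 and 54.1 CPM in mesophyll. Its epidermis range of 5.98-fold was the widest of any of the 10 genes in either tissue, beside 2.08-fold in mesophyll. The fitted difference was close to none, with a fold of 0.999, an interval of 0.548-fold to 1.82-fold and an unadjusted p of 0.998 (edgeR's quasi-likelihood F test across all genes). The log2 fold change and its F value were both near 0, so this interval, computed from their ratio, is imprecise. MET1 over CMT3 per kilobase was 2.26, 0.975, 0.635 and 0.206 in epidermis and 1.1, 0.458, 0.954 and 0.853 in mesophyll.

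DRM2 (AT5G14620, chr5:4715105-4718704, minus strand) varied least of the 10 in epidermis, with 51.5, 64.8, 51.7 and 43.8 CPM in epidermis, against 65.2, 49.0, 51.7 and 47.9 CPM in mesophyll. Both tissues stayed within a 1.5-fold span, 1.48-fold in epidermis and 1.36-fold in mesophyll, and the interval of the difference was 0.678-fold to 1.44-fold (log2 fold change −0.02, SE 0.24, adjusted p = 0.991, edgeR). DDM1 (AT5G66750, chr5:26648897-26653191, plus strand) had 31.6, 51.2, 55.0 and 26.5 CPM in epidermis, against 68.4, 31.1, 39.3 and 29.4 CPM in mesophyll. The highest DDM1 value came from mesophyll replicate 1, which was also highest among mesophyll libraries for DRM2. The log2 fold change of DDM1 was −0.01 (SE 0.35, adjusted p = 0.997, edgeR), with an interval of 0.567-fold to 1.75-fold. Summed over the 4 DNA methylation genes, the TMM-scaled level was 231 ± 57.8 CPM in epidermis and 224 ± 16.7 CPM in mesophyll (SD, n = 4 each).

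**Figure D2:**
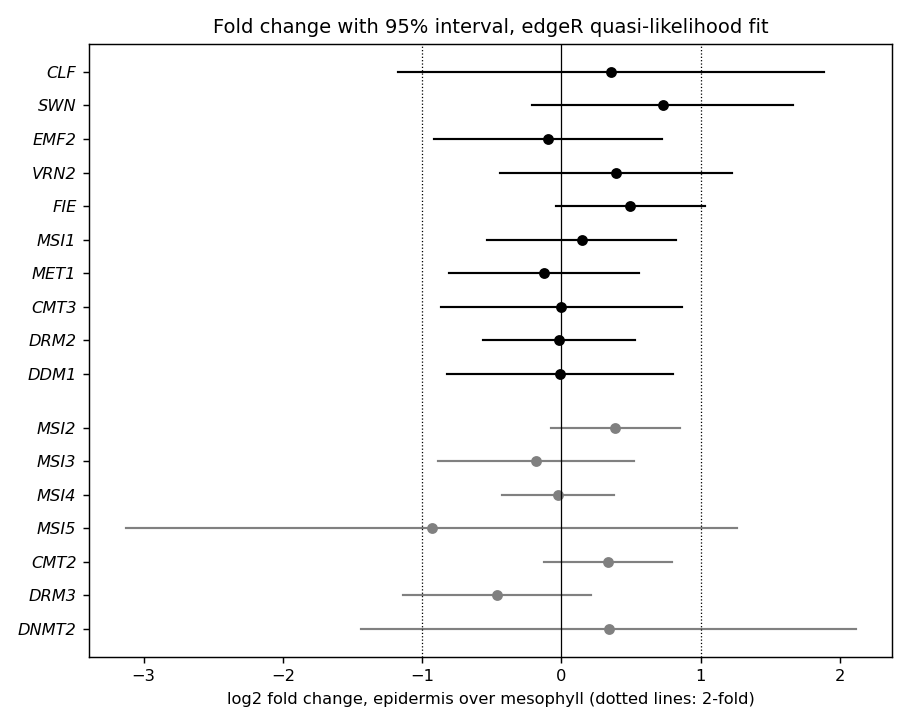
Log2 fold change of epidermis over mesophyll with its 95% interval for the 10 genes (black) and for 7 of the 9 tested homologues (grey), with dotted lines at a 2-fold change. The intervals of EMF2, MSI1, MET1, CMT3, DRM2 and DDM1 lie inside the dotted lines, and those of the 17 genes plotted include 0. DMT2 (−0.36 to 9.26) and MEE57 (2.65 to 11.47, which excludes 0) are left off because they would stretch the axis.

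The intervals differ in what they leave room for. For 6 of the 10 genes (EMF2, MSI1, MET1, CMT3, DRM2 and DDM1) the 95% interval stayed within 2-fold in either direction, which held for 25.5% of all genes and for 37.2% of the 6536 genes with a mean level between 18.6 and 83.3 CPM, the range spanned by the 10. The 4 DNA methylation genes were all among these 6, but for CMT3 this depended on the fit. Without the replicate block its interval was 0.584-fold to 2.39-fold, and without epidermis replicate 1 it was 0.889-fold to 2.45-fold. With the 50 most abundant models left out it was 0.501-fold to 2.01-fold. The CMT3 interval stayed within 2-fold in 5 of 21 alternative quasi-likelihood fits. DRM2 stayed within 2-fold in 21 of the 21 fits, MSI1 and MET1 in 19 each, DDM1 in 14 and EMF2 in 12. For CLF, SWN, VRN2 and FIE, a 2-fold higher level in epidermis lay inside the interval, and for CLF also a 2-fold lower one. The median absolute log2 fold change was 0.13 over the 10 genes, 0.31 over the genes of like level and 0.42 over all genes.

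The spread between libraries was larger in epidermis for 7 of the 10 genes, a share of 70.0% beside 66.6% of all genes. The study also found its epidermis samples the more variable, and proposes that this may come from endosperm taken along in the dissection. It gives a slightly lower RNA integrity for epidermis. The part of endosperm or of RNA quality in this spread was not tested. The SD of log2 CPM was 1.19 in epidermis and 0.456 in mesophyll for CMT3, and 0.641 and 0.132 for MET1 in the same order of tissues. SWN, FIE and DDM1 went the other way, with 0.493, 0.307 and 0.516 in epidermis, against 0.657, 0.436 and 0.555 in mesophyll.

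Levels of different genes were compared per kilobase of gene model. MSI1 stood highest at 54.3 CPM per kb in epidermis and 48.2 in mesophyll, followed by FIE at 40.4 and 29.2 CPM per kb. Averaged over the tissues, these were at the 84.4th and 77.5th percentile of all genes tested. DRM2, CMT3, VRN2, DDM1, MET1 and EMF2 followed between 24.4 and 14 CPM per kb over both tissues. The catalytic subunits were lowest, SWN at 7.80 and CLF at 6.28 CPM per kb, and CLF lay at the 28.9th percentile. In epidermis, FIE and DRM2 were the single neighbouring pair in this order whose library values did not overlap, and in mesophyll each neighbouring pair overlapped. The lengths are those of the gene models in the count tables, which equal the RefSeq transcript for FIE and MSI1 alone among the 10.

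**Figure D3:**
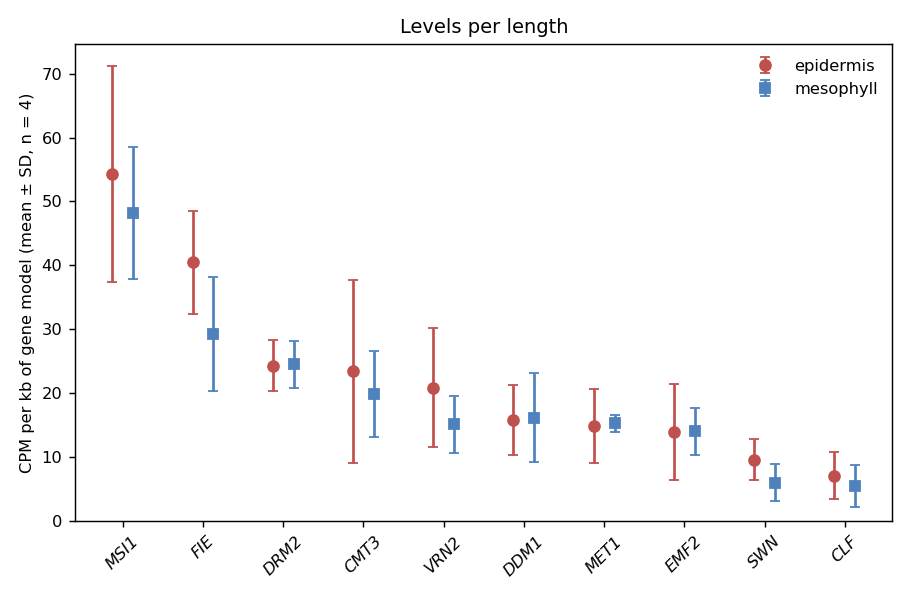
Mean CPM per kilobase of gene model in epidermis (red circles) and mesophyll (blue squares), with bars of ± SD over 4 libraries, in order of the mean over both tissues. MSI1 and FIE stand highest, and SWN and CLF lowest, in both tissues.

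Promoter windows of 300 bases, from 250 before to 50 after each annotated gene start on the RefSeq annotation of TAIR10.1, were searched on both strands for the E2F site variants TTTCCCGC, TTTGGCGC and TTTGGCGG, bound by cell cycle regulators, for the telo box AAACCCTA found in many genes of dividing cells, and for the repeat GAGAGA. At least 1 of the 3 E2F sites was present in 1 of the 10 promoters (CMT3), beside 1.88% of 27443 promoters. The telo box was present in 1 of 10 (CLF), beside 6.22%, and GAGAGA in 4 of 10 (CLF, MSI1, CMT3 and DRM2), beside 29.2%. Stretches of CMT3 and CLF are printed because these genes had the widest ranges between epidermis libraries. They hold the E2F site and the telo box and are shown with the motif in capitals, read 5′ to 3′ on the strand of the gene, where the telo box of CLF reads as its reverse complement.
CMT3: aaacccatcacTTTGGCGCttatgtgacgc
CLF: agcccaaacaaaTAGGGTTTaagagcccat
The CMT3 stretch is chr1:26253647-26253676 on the minus strand and the CLF stretch is chr2:9955112-9955141 on the plus strand, both downstream of the annotated start. A match describes the letters of the window and was not tested for function.

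The homologues of the 10 genes were examined next. MEA, the catalytic subunit of the seed-specific FIS complex, was at or under the floor of 3 pairs in all 8 libraries, with 2 pairs in epidermis replicate 2, 1 in mesophyll replicate 1 and none elsewhere. FIS2, its zinc finger partner, had 1.79, 0.179, 0.586 and 0.573 CPM in epidermis and 0.499, 0.733, 0.366 and 0.483 CPM in mesophyll, and did not pass the filter. The MSI1 relatives were expressed more strongly. MSI2 had 79.4, 103, 82.8 and 93.8 CPM in epidermis, against 63.5, 66.8, 78.6 and 65.0 CPM in mesophyll. These values did not overlap, as for 5.5% of all genes in this direction, but without TMM epidermis replicate 1 (73.6 CPM) lay below mesophyll replicate 3 (81.8 CPM) and the tissues overlapped. MSI2 was not called (log2 fold change 0.39, SE 0.20, adjusted p = 0.536, edgeR). MSI4, a component of the autonomous flowering pathway, averaged 161 ± 27.0 CPM in epidermis and 162 ± 4.41 CPM in mesophyll, with an interval of 0.743-fold to 1.3-fold. MSI3 and MSI5 had log2 fold changes of −0.18 and −0.93 and were not called, and epidermis replicate 4 was low for MSI5 with 0.809 CPM beside 10.1 to 19.8 CPM in the other epidermis libraries.

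Among DNA methyltransferases, DRM1 had no pair in any library and CMT1 had 8 pairs in epidermis replicate 4 alone, so DRM2 and CMT3 were the expressed genes beside these copies. CMT2, which methylates CHH sites in long transposons, had 94.2, 92.1, 91.1 and 78.3 CPM in epidermis, against 71.4, 85.0, 58.0 and 69.5 CPM in mesophyll. Its log2 fold change was 0.33 (SE 0.20, adjusted p = 0.624, edgeR) and mesophyll replicate 2 lay above epidermis replicate 4. DRM3, a catalytically inactive relative of DRM2, had −0.46, and DNMT2, a tRNA methyltransferase, had 0.34, and neither was called.

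The minor homologues of MET1 had low levels that differed far more between libraries. MEE57 had 3.91, 2.04, 9.27 and 11.6 CPM in epidermis, against 0, 0.352, 0.0332 and 0.0322 CPM in mesophyll, where 3 of 4 libraries held at most 1 pair. The tissues did not overlap, which followed from the filter. Every mesophyll library was under 1 CPM, so MEE57 could pass only with all 4 epidermis libraries at or above it. The fitted log2 fold change was 7.06 (95% interval 2.65 to 11.47). It was not called, with an adjusted p of 0.165 by the quasi-likelihood test, but was called by the likelihood ratio test (0.00283), DESeq2 (6.31e-06) and the bias-adjusted quasi-likelihood fit (0.0470). Those fits used the same filter, so their calls add no separate support. Without the block the adjusted p was 0.0657, and with limma-voom 0.108. The fold change lay between 5.54 and 8.44 on the log2 scale over the 19 of 24 alternatives in which MEE57 was tested. DMT2 had 1.15, 1.54, 10.1 and 8.99 CPM in epidermis, against 0.142, 1.73, 0.0997 and 0.0322 CPM in mesophyll, where replicate 2 lay above 2 epidermis libraries. Its adjusted p was 0.477 with the quasi-likelihood test and 0.0127 with DESeq2. AT4G08990, a further MET1 homologue, had 6.15, 0.0357, 0.521 and 38.2 CPM in epidermis, against 0.214, 0.352, 0.598 and 0.902 CPM in mesophyll, and was not tested because too few libraries reached 1 CPM. DMT2 and AT4G08990 share some exact stretches of 50 bases (11.3% and 14.3% of those in each model), and read pairs matching more than 1 gene were not counted.

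**Figure D4:**
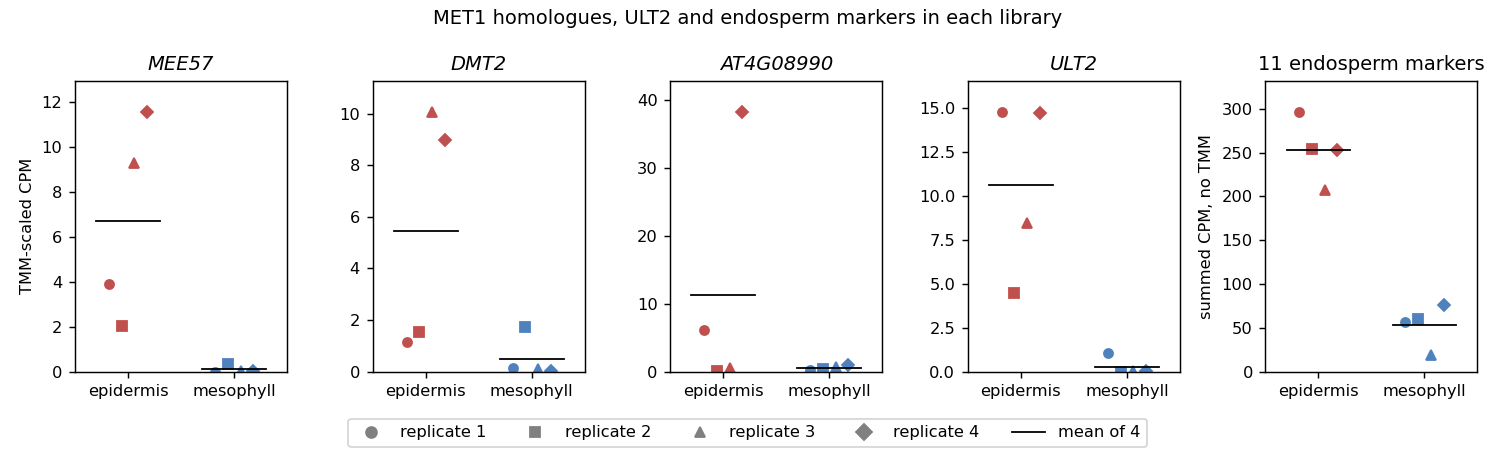
TMM-scaled CPM of MEE57, DMT2, AT4G08990 and ULT2, and the summed CPM of 11 endosperm markers, in the 4 epidermis (red, left) and 4 mesophyll (blue, right) libraries, with the mean of 4 as a line. MEE57, ULT2 and the marker sum do not overlap between tissues, which for MEE57 follows from the filter. AT4G08990 is high in epidermis replicates 1 and 4 alone.

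The other genes of these pathways were read from lists of 130 genes that hold none of the 10, of which 108 were tested. With the quasi-likelihood test 0 of 108 were called, beside 1.08% of all genes, and 8 (7.41%) had an unadjusted p under 0.05, beside 11.8%. The median log2 fold change was 0.07. The likelihood ratio test called 2 of 108, DESeq2 4 and limma-voom 0.

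Polycomb partners and readers had median fold changes near 0. Of 14 PRC2 partners (PHD proteins such as VIN3 and VRN5, the B3 repressors VAL1 to VAL3 and the telomere repeat binding proteins, among others), 11 were tested, 9 with a positive fold change, and the median was 0.08. Of 8 PRC1 components and readers, 7 were tested and the median was 0.06. LHP1, the reader of the Polycomb mark, had 15.9, 6.72, 30.6 and 44.0 CPM in epidermis, against 15.8, 20.9, 17.7 and 23.1 CPM in mesophyll (adjusted p = 0.984, edgeR). EMF1, a plant-specific partner of PRC1, had a log2 fold change of 0.17 (SE 0.63). Of 14 Polycomb antagonists, such as the demethylase REF6 and the remodeller BRM, 13 were tested with a median of −0.004.

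ULT2, a SAND domain protein of the antagonist list that was chosen for mention after its values were seen, had 14.8, 4.47, 8.49 and 14.7 CPM in epidermis, against 1.07, 0, 0.0332 and 0.0322 CPM in mesophyll. The fitted log2 fold change was 7.26 (SE 1.57), with an adjusted p of 0.0826 by the quasi-likelihood test, 0.000121 by the likelihood ratio test and 2.26e-08 by DESeq2. With limma-voom the adjusted p was 0.0549 and without the block it was 0.127. The study, which used a likelihood ratio test, had already listed ULT2 among the transcription factors higher in epidermis. Over 23 alternatives the log2 fold change lay between 4.80 and 8.71 and the adjusted p between 2.26e-08 and 0.295, and 4 of the 23 called ULT2. The mesophyll pairs came nearly all from replicate 1, and without that library the adjusted p was 0.0135 (edgeR's quasi-likelihood test) and the log2 fold change 8.71. In that fit every mesophyll library was under 1 CPM, so ULT2 could pass the filter only through all 4 epidermis libraries. Its call there is therefore no separate support. The summed endosperm markers, MEE57 and ULT2 were each higher in every epidermis library than in any mesophyll library. This also held for the summed epidermis markers and for 5.5% of all genes, and for MEE57 it followed from the filter. Within epidermis the endosperm sum was 296, 254, 208 and 252 CPM in replicates 1 to 4, MEE57 was highest in replicate 4 and ULT2 in replicate 1. The part of the endosperm in the values of MEE57 and ULT2 was not tested.

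In the methylation lists, 12 of 12 maintenance partners were tested, with a median of −0.04. VIM1, which recruits MET1 to hemimethylated CG sites, averaged 86.4 ± 36.7 CPM in epidermis and 98.9 ± 26.1 CPM in mesophyll. SUVH4, the histone methyltransferase that works in a loop with CMT3, averaged 20.7 ± 3.07 CPM in epidermis and 21.8 ± 7.48 CPM in mesophyll. For RNA-directed DNA methylation, the pathway that guides DRM2, 23 of 24 genes were tested, 13 had a positive fold change and the median was 0.13. For DNA demethylation, 5 of 6 were tested with a median of −0.26. DME, a DNA glycosylase that removes methylcytosine, had 23.9, 44.9, 75.8 and 66.6 CPM in epidermis, against 54.4, 62.7, 95.4 and 94.1 CPM in mesophyll, and was the lower in epidermis in 4 of 4 same-numbered pairs. The share of all genes lower in 4 of 4 was not computed, and the numbers are not shown to pair the samples. The log2 fold change of DME was −0.62 (SE 0.23), which did not pass after adjustment (adjusted p = 0.325, edgeR). ROS1, its relative, averaged 127 ± 16.0 CPM in epidermis and 152 ± 23.8 CPM in mesophyll (adjusted p = 0.677, edgeR).

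Since MET1, CMT3 and MSI1 are known to be expressed most in dividing cells, genes of DNA replication and mitosis were read beside them. All 20 replication and S phase genes were tested, 15 with a positive fold change, and the median was 0.19. The replicative helicase genes MCM2 to MCM7 had log2 fold changes between 0.17 and 0.42, and none was called. The 7 mitosis genes had a median of −0.23, and 0 of 7 were called.

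**Figure D5:**
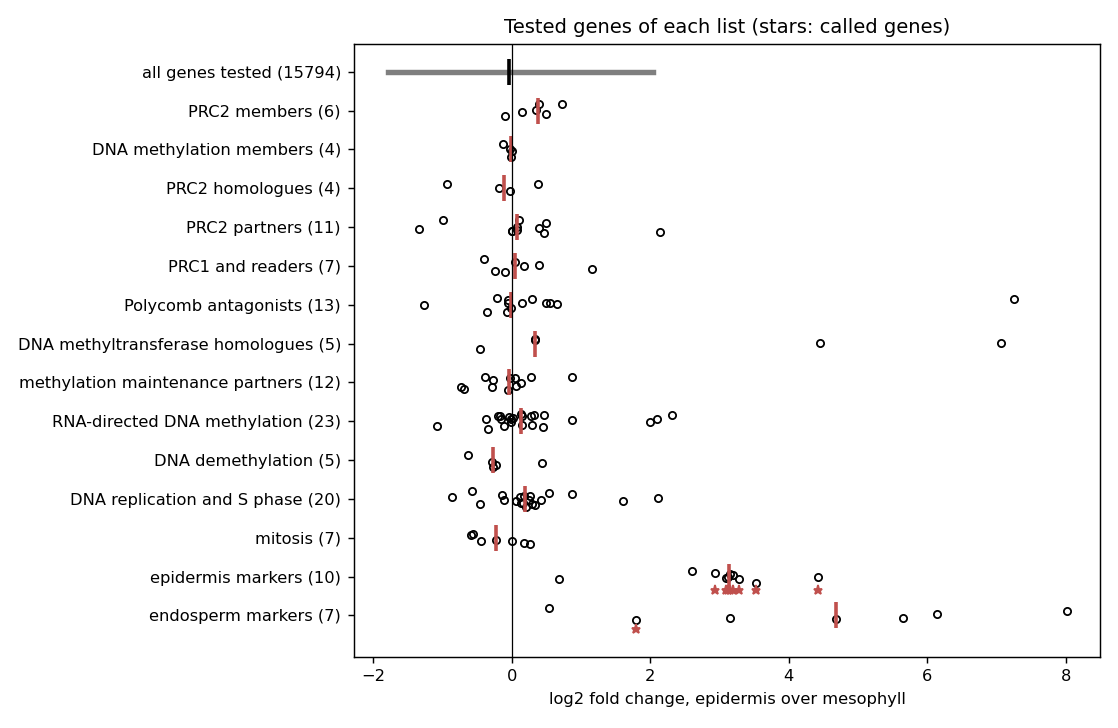
Log2 fold change of epidermis over mesophyll for the tested genes of each list (circles, with the number tested), the median of each list (red line) and called genes (red stars). The grey bar spans the 5th to 95th percentile of all genes tested, and among the lists shown stars appear under the epidermis and endosperm markers alone.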

How the data were processed

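Polyadenylated RNA was amplified with the SMART-Seq v4 kit and sequenced in pairs without strand information or molecular identifiers, so counting intervals cover counting error only. The authors deposited counts of read pairs per gene model: reads were trimmed, ribosomal reads were removed, and pairs were aligned with Bowtie2 to TAIR10 gene models and counted when both reads matched a single gene. The submitters' processing notes also name TopHat2. Versions are not given in the sources used here. Depth was 27676412 to 36685627 pairs per library, and 3 pairs, the limit that a count of 0 allows, equal 0.0818 to 0.108 CPM.

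Counts were analysed in edgeR 4.0.16 (R 4.3.3) after TMM scaling. Genes reaching 1 CPM in 4 or more of the 8 libraries were kept, tissue was tested by the quasi-likelihood F test with the replicate number as a blocking factor, and p-values were adjusted by Benjamini-Hochberg over 15794 genes. The method was tested on simulated data. Alternatives were the likelihood ratio test, other scalings and filters, no block, singly counted reads, DESeq2 1.42.0, limma-voom (limma 3.58.1) and leaving out libraries. The block follows the study's model of harvest date. Of 33602 identifiers, 32835 matched RefSeq, which gave names, promoters and coordinates on TAIR10.1. The 10 genes and all lists were chosen with earlier results of these data known. Named were the 10 genes, their homologues, LHP1, EMF1, SUVH4, VIM1, ROS1, DME and MCM2 to MCM7, at most 3 called genes of each further list, and the 3 genes most alike in pattern to each of the 10. FLC and other genes named outside this rule were chosen after their values were seen.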

Additional observations from a re-analysis of the deposited data

Results flagged for a closer look

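In 7 of 98 sets of 4 libraries (7.14%), a single library lay apart from the other 3 by a gap that, as a share of the whole range, was above Dixon's 95% critical value for 4 samples, which chance passes in about 1 of 20 sets. None of the 10 genes was among them when taken singly. Replicate 2 was the high library in mesophyll for DMT2, with 1.73 CPM, and for MEE57, with 0.352 CPM. Mesophyll replicate 1 was high for SUVH4, with 32.9 CPM, and low for the summed CPM of the 6 PRC2 genes, with 203 CPM. That low sum stands apart only without TMM. With TMM scaling the gap was 48.0% of the range, below the critical value. Mesophyll replicate 4 was low for MCM3, with 36.7 CPM. Epidermis replicate 2 was high for MCM6, with 93.5 CPM. Mesophyll replicate 3 was low for the summed epidermis markers, with 229 CPM.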

How the results depend on the processing

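In all 24 alternatives, 0 of the 10 genes were called. An unadjusted p under 0.05 was reached by FIE in 2 alternatives and by SWN in 1. Over the 240 fits of single genes, the sign differed from that of the reported value in 49, mostly for CMT3 (17 of 24) and DDM1 (10 of 24), whose estimates are near 0. The number of the 10 whose interval stayed within 2-fold was 6 in the reported fit and 1 to 6 in the other quasi-likelihood fits, with 5 without the block and 1 without replicate 2 or 3 of both tissues. SWN, VRN2 and FIE kept a positive sign in all 24. The count of all genes called, 171, was 361 with no replicate block, 821 with the likelihood ratio test, 633 with the bias-adjusted quasi-likelihood fit, 1320 with DESeq2, 497 with limma-voom and 257 with a filter of 10 CPM. When libraries were left out it ranged between 54 (without replicate 3 of both tissues) and 264 (without epidermis replicate 3). It was 76 without replicate 1 of both tissues and 257 without epidermis replicate 1. Of the pathway list genes, 0 were called in the reported fit, 2 by the likelihood ratio test (ULT2 and MEE57), 2 by the bias-adjusted fit (ULT2 and MEE57) and 4 by DESeq2 (ULT2, MEE57, DMT2 and ORC1B). When libraries were left out, between 0 and 1 were called, namely ULT2 without mesophyll replicate 1 and MEE57 without mesophyll replicate 2. In these fits the gene was under 1 CPM in every mesophyll library and passed the filter only through the epidermis libraries. The cause of the differences between settings was not tested. The correlations of same-numbered libraries' deviations from their tissue means were 0.01, −0.0019, 0.07 and −0.01, and 1 of 4 numbers matched its own partner best, so the numbers are not shown to pair the samples.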

Other observations

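Textbook targets of Polycomb repression or DNA methylation were mostly at or near 0. Of 11 such genes, 1 was tested. This was FLC, the repressor of flowering, with 56.3, 30.7, 28.6 and 64.1 CPM in epidermis, against 26.5, 35.0, 39.2 and 36.7 CPM in mesophyll (log2 fold change 0.31, adjusted p = 0.822, edgeR). The florigen gene FT, the floral homeotic gene AP3 and the imprinted endosperm gene PHE1 had no pair in any library. FWA, which is silenced by DNA methylation in the embryo and expressed in the endosperm, had 9.53 CPM in epidermis replicate 4 and no pair in the other 7 libraries. PI, the partner of AP3, had 7.93 CPM in epidermis replicate 2, and KNAT2 had 3.61 CPM in epidermis replicate 3. No mesophyll library held more than 0.117 CPM of PI or KNAT2. STM, a meristem homeobox gene, had 0.147, 4.93, 5.76 and 0.0337 CPM in epidermis and 0, 0.0587, 2.53 and 0 CPM in mesophyll, so single libraries of both tissues held it. Epidermis replicate 4 was also the library with the most AT4G08990 and the single library with CMT1. The endosperm markers MYB118 (57.2 CPM) and ZOU (22.4 CPM) and the seed coat marker BAN (10.3 CPM) were likewise highest in epidermis replicate 4. Other endosperm markers were not. SUC5 was highest in epidermis replicate 2 (202 CPM), and ALE1 and EPR1 in epidermis replicate 1 (66.2 and 37.6 CPM). AGL62 and AGL80 had no pair in epidermis replicate 4. The summed endosperm markers were 252 CPM there and 296 CPM in epidermis replicate 1. The part of these tissues in the values was not tested.

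Across the 8 libraries, the 45 pairs of the 10 genes had Pearson correlations of log2 CPM between −0.82 and 0.85, with a median of −0.086. The libraries share tissue and depth, and these values are a description. DRM2 and DDM1 were the most alike (0.854), and MSI1 and MET1 the least (−0.824), followed by EMF2 and VRN2 (−0.807). Among 11464 genes of at least 10 CPM, those most alike in pattern were AT4G01990 for MSI1 (0.987), AT3G07170 for DRM2 (0.980), AT2G17880 for CLF (0.979), AT4G30820 and ZIP4 for MET1 (both 0.975), GRF1 for CMT3 (0.970), FLA18 for FIE (0.967), PA200 for VRN2 (0.959), ECT11 for SWN (0.958), ATU2AF65A for EMF2 (0.949) and EBF1 for DDM1 (0.945). The next in likeness were AT1G80690 and AT2G31710 for MSI1, UBP1B and SDG29 for DRM2, MNS1 and MAG1 for CLF, and AT1G33420 for MET1. They were EER5 and RPL3P for CMT3, AT1G71850 and AT5G44090 for FIE, NDL3 and AT1G29785 for VRN2, AT4G15080 and AT5G54760 for SWN, AT1G04590 and MHX for EMF2, and AT1G49730 and AT1G73950 for DDM1, with correlations of 0.932 to 0.977.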
